A study of Mus musculus with 24 samples.

Results

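Claudin genes encode the membrane proteins that seal the space between neighbouring epithelial or endothelial cells, and 9 of them are described here across 6 liver genotypes. The members, Cldn1, Cldn2, Cldn3, Cldn4, Cldn5, Cldn6, Cldn7, Cldn12 and Cldn14, were chosen by symbol from the 33019 genes of the count table, without use of their values. All 9 were found and all 9 passed the filter on low counts, which kept 15851 genes. The samples are 24 RNA-seq libraries of liver from C57BL/6J mice at 2 months of age, 4 for each genotype. The control group is labelled wild type (WT). Libraries labelled Atg5 KO come from livers that lack Atg5, a gene required for building autophagosomes, and those labelled TSC1 KO from livers that lack Tsc1, a brake on the growth kinase mTORC1. The group labelled DKO carries both deletions, and 2 further groups carry both together with a hepatic deletion of p62 (p62 TKO), the autophagy receptor encoded by Sqstm1, or of Nrf2 (Nrf2 TKO), the transcription factor encoded by Nfe2l2. The promoter behind the hepatic deletions, the sex of the mice and any batch were not given in the sources used here. Nor is it stated that the 4 libraries of a group are different animals, and p-values therefore reflect only how far these libraries spread, which may be technical.

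Claudins join across neighbouring cells into the strands of the tight junction, and the mixture of family members present sets how tight the seal is and which ions and water pass beside the cells. In liver, tight junctions close the bile canaliculus between hepatocytes and the lumen of the bile ducts, and so keep bile apart from blood. Some members mainly form a barrier (Cldn1, Cldn3, Cldn5), Cldn2 forms pores for cations and water, and the endothelial member Cldn5 seals blood vessels. Cldn4 and Cldn7 are characteristic of ducts and other simple epithelia, and Cldn6 of embryonic epithelium.

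Libraries held 10494080 to 13057467 counts each. Levels are CPM, counts scaled to a common depth, here after TMM scaling, which assumes that most genes do not differ between libraries, and are given as mean ± SD (n = 4 per genotype). Changes are log2 fold changes ± SE from edgeR's quasi-likelihood test, and an adjusted p (Benjamini-Hochberg, over all 15851 tested genes) under 0.05 counts as a call. Scaling bears on the comparisons with DKO: the 20 top genes held 21.01 to 26.71% of all counts in WT libraries but 13.32 to 13.7% in DKO libraries. With library totals alone, without TMM, the median log2 fold change of all genes moved from 0.08 to 1.07 in DKO against WT, from 0.00 to 0.37 in Atg5 KO against WT, from 0.01 to 0.14 in TSC1 KO against WT, from -0.02 to -0.48 in p62 TKO against DKO and from -0.05 to -0.71 in Nrf2 TKO against DKO. Alb, the serum albumin gene of hepatocytes, stood at 58800 ± 10600 CPM in WT and 6650 ± 646 in DKO. The summed markers of stellate cells (189 to 309 CPM in WT, 736 to 918 in DKO) and of macrophages (227 to 367 and 318 to 515) stood higher in DKO, the latter with overlap. Single markers were mixed. Of 10 stellate markers 7 were called higher and 2 lower, and of 10 macrophage markers 5 and 4. Of all genes 37.1% were higher and 32.3% lower. With library totals alone the markers split 8 and 0, and 6 and 3. Of all 15851 genes, 11158 were then higher and 1767 lower. The part of these cells in any result was not tested. Of the targeted genes, Nfe2l2 had its lowest mean in Nrf2 TKO (11.7 CPM against 113 in DKO), without overlap (8.69 to 17.7 against 92.8 to 162). Sqstm1 had its lowest mean in p62 TKO (456 CPM against 961 in DKO). Its p62 TKO libraries ran from 249 to 774 CPM and overlapped both WT (508 to 691) and DKO (729 to 1060). Atg5 stood at 26.8 CPM in WT and 43 in Atg5 KO, and Tsc1 at 35.1 in WT and 31 in TSC1 KO. Atg5 was lower in DKO than in TSC1 KO, without overlap (20.1 to 25.1 against 79.8 to 88.6 CPM). In p62 TKO and Nrf2 TKO its means were 38.1 and 41 CPM. Tsc1 stood at 32.6 CPM in Atg5 KO and 36.6 in DKO. Whole-gene counts thus did not show the Tsc1 deletion. For Atg5 they were lower in DKO than in TSC1 KO, but not in Atg5 KO than in WT. Nor did whole-gene counts of Sqstm1 set p62 TKO apart in every library. In RNA of whole liver, fewer cells of a type and less RNA per cell cannot be told apart.

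All members are protein coding, and positions are on GRCm38 with GENCODE M21. Cldn4 (ENSMUSG00000047501) occupies chromosome 5, 134945119 to 134946934, on the minus strand, as 1 exon of 1816 bases. Cldn3 (ENSMUSG00000070473) is its neighbour at 134986214 to 134987472 on the plus strand, also with 1 exon, and the gap between them is 39279 bases. Cldn7 (ENSMUSG00000018569) lies on chromosome 11, 69964779 to 69967885, plus strand, and Cldn6 (ENSMUSG00000023906) on chromosome 17, 23679249 to 23682446, plus strand, 137 bases before Cldn9. Chromosome 16 holds Cldn1 (ENSMUSG00000022512, 26356642 to 26371841, minus), Cldn5 (ENSMUSG00000041378, 18776847 to 18778262, plus) and Cldn14 (ENSMUSG00000047109, 93919031 to 94008837, minus). Cldn2 (ENSMUSG00000047230) lies on chromosome X, 139800828 to 139811386, plus strand, and Cldn12 (ENSMUSG00000046798) on chromosome 5, 5489537 to 5514958, minus strand. Cldn3 shares 40 exon bases with the antisense gene Wbscr25. Whether the authors' counting used the strand was not given in the sources used here, and reads of that stretch may belong to either gene.

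The 250 bases before the start of transcription are shown for 4 members that behaved differently in these livers, the 2 neighbours Cldn4 and Cldn3, Cldn7 and Cldn1. They come from RefSeq on GRCm38.p6, in which all 9 members matched, with 14 starts in all, and read 5′ to 3′ on the strand of the gene. For Cldn7, which has 2 starts in the table, the first is shown. Capitals mark every match, on either strand, to 7 motifs searched: the AP-1 site TGANTCA, the antioxidant response element TGACNNNGC bound by Nrf2, the TEAD site GGAATG, the GC box GGGCGG, the TATA box TATAAA, the grainyhead site AACNNGTT and the HNF4A site CAAAGTC. No capitals overlap between motifs in the sequences below.
Cldn4, chr5:134946935-134947184, minus strand: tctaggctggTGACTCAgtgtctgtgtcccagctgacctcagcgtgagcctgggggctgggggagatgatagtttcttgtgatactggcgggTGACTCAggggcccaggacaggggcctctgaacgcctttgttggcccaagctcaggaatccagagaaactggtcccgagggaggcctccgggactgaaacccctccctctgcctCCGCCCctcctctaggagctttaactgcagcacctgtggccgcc
Cldn3, chr5:134985964-134986213, plus strand: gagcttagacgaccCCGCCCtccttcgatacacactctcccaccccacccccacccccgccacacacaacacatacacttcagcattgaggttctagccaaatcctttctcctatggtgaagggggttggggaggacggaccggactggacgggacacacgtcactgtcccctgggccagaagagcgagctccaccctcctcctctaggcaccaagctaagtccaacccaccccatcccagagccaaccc
Cldn7, chr11:69964529-69964778, plus strand: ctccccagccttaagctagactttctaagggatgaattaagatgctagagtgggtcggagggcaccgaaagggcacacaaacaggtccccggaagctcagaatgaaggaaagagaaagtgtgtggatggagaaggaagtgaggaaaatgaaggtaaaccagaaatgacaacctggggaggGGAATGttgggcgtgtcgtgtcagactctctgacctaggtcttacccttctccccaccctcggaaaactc
Cldn1, chr16:26371840-26372089, minus strand: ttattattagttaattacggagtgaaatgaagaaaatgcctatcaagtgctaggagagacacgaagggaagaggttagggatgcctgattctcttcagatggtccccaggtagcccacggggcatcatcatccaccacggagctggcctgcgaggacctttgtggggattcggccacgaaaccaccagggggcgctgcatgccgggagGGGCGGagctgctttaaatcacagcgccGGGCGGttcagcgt

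The Cldn4 window holds the AP-1 letters at 2 places, 240 and 158 bases before the start, and a GC box at 44. Of 32851 windows of the same length, 6.75% hold the AP-1 letters and 0.338% hold them at least at 2 places. The Cldn7 window has a TEAD site 70 bases before the start (12.6% of windows hold these letters), and the Cldn3 and Cldn1 windows have the GC box only (32.7% of windows), at 236 bases, and at 42 and 14 bases, before the start. Among windows not shown, that of the second Cldn7 start has a GC box at 6 bases and no TEAD match. The Cldn2 window has a TEAD match at 147 bases, and the Cldn6 window has GC boxes only, at 140 and 8 bases. This Cldn6 window (23679115 to 23679364) runs past the GENCODE gene start at 23679249, so part of it lies within the annotated gene. These matches describe the letters and show neither binding nor use of a site.

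In WT liver, 5 claudins made up nearly all of the claudin RNA, and in DKO liver the mixture was another. To compare genes with each other, CPM was divided by exon length in kb. On that scale Cldn3 led in WT at 77.2 ± 13 CPM per kb, followed by Cldn2 at 34.2 ± 5.17, Cldn12 at 22.8 ± 1.17, Cldn1 at 19.8 ± 8.53 and Cldn14 at 9.26 ± 2.61. Cldn12 and Cldn1 differed by less than the spread between the WT libraries. Cldn5 followed at 2.89 ± 1.04, and Cldn7, Cldn6 and Cldn4 stood at 0.44 ± 0.0844, 0.298 ± 0.0672 and 0.0458 ± 0.0595.

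In DKO the order became Cldn3 (100 ± 8.07 CPM per kb), Cldn4 (82.6 ± 19.7), Cldn7 (24.7 ± 3.18), Cldn2 (23.8 ± 3.8), Cldn6 (13 ± 1.79), Cldn12 (12.7 ± 0.716), Cldn1 (6.32 ± 1.17), Cldn5 (5.93 ± 1.89) and Cldn14 (1.32 ± 0.49). Neighbours that differed by less than their spread were Cldn3 and Cldn4, Cldn7 and Cldn2, Cldn6 and Cldn12, and Cldn1 and Cldn5. Cldn4 took 30.3 ± 4.37% of the summed claudin level per kb in DKO against 0.0278 ± 0.0342% in WT. Cldn4 stood below Cldn3 in each DKO library, at a ratio of 0.817 ± 0.148, against 0.000641 ± 0.000779 in WT. Over the same step the share of Cldn7 went from 0.265 ± 0.0505% to 9.18 ± 1.14% and that of Cldn6 from 0.182 ± 0.0507% to 4.8 ± 0.434%, while that of Cldn1 went from 11.8 ± 4.67% to 2.36 ± 0.533%. These shares do not depend on the scaling of the libraries.

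With p62 or Nrf2 also deleted, the mixture lay nearer to that of WT. The share of Cldn4 was 4.34 ± 2.37% in p62 TKO and 2.23 ± 0.283% in Nrf2 TKO, beside 1.35 ± 0.428% in Atg5 KO and 0.683 ± 0.257% in TSC1 KO. Cldn3 held 45.1 ± 3.92% and 44.5 ± 7.95% in the triple knockouts against 37.2 ± 1.59% in DKO and 46 ± 3.54% in WT. The summed level of the 9 genes was 167 ± 19 CPM per kb in WT and 271 ± 31.9 in DKO, against 177 ± 16.9 for p62 TKO and 173 ± 12.8 for Nrf2 TKO, and every DKO library (238 or more) lay above every library of the other genotypes (205 or less).

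**Figure D1:**
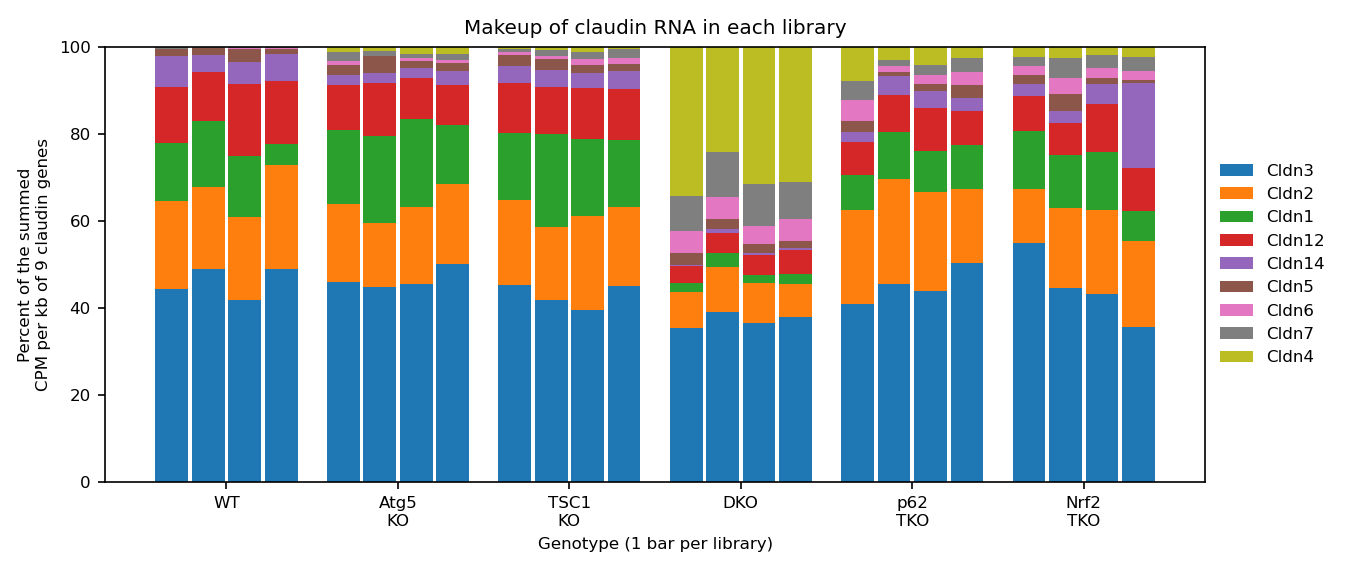
Percent of the summed CPM per kb of the 9 claudin genes taken by each gene (y axis), with 1 bar per library grouped by genotype (x axis). Cldn4 takes 24.1 to 34.4% in the 4 DKO libraries and at most 7.72% in any other library, and Nrf2 TKO replicate 4 has a wide band of Cldn14 (19.4%).

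Cldn4, a sealing claudin that serves, like Cldn3, as a receptor of Clostridium perfringens enterotoxin, was almost without reads in WT and abundant in DKO. The 4 WT libraries held 2, 0, 1 and 0 reads. The DKO libraries held 3359, 1859, 3149 and 2681 reads, or 192, 109.6, 164 and 134 CPM. No WT library came near the lowest DKO library, and no library of any other genotype reached it either.

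The groups with 1 deletion lay between. Cldn4 stood at 3.89, 2.61, 6.37 and 5.67 CPM in Atg5 KO and at 1.75, 2.37, 3.58 and 1.67 in TSC1 KO. In p62 TKO it was 27.3, 9.84, 12.4 and 7.48 CPM and in Nrf2 TKO 7.13, 8.10, 6.49 and 6.18. All libraries of each knockout group were above all WT libraries, and all triple knockout libraries were below all DKO libraries, with p62 TKO replicate 1 the highest of them.

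Since WT held 3 reads in all, the folds against it are ratios of scaled counts with a 95% interval for counting error only. Cldn4 was 1760-fold higher in DKO than in WT (interval 601 to 8520, adjusted p = 3.42e-12). It was 54.8-fold higher in Atg5 KO (18.5 to 268, adjusted p = 1.05e-05) and 27.7-fold higher in TSC1 KO (9.19 to 137, adjusted p = 0.000805). WT replicate 1 held 2 of the 3 reads, and without it the fitted log2 fold change went from 10.62 to 11.60 in DKO, from 5.61 to 6.62 in Atg5 KO and from 4.63 to 5.66 in TSC1 KO.

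Between groups with enough reads the fitted changes stand on their own. Cldn4 rose by 5.01 ± 0.36 from Atg5 KO to DKO (adjusted p = 4.43e-10) and by 5.99 ± 0.391 from TSC1 KO to DKO (adjusted p = 5.29e-11). It fell by 3.39 ± 0.325 from DKO to p62 TKO (adjusted p = 8.56e-08) and by 4.42 ± 0.348 from DKO to Nrf2 TKO (adjusted p = 1.79e-09). Both triple knockouts stayed above WT, p62 TKO 172-fold (58.7 to 837) and Nrf2 TKO 82.6-fold (28 to 403), and without WT replicate 1 the fitted values went from 7.23 to 8.23 and from 6.20 to 7.21. Cldn4 was higher in p62 TKO than in Nrf2 TKO by 1.03 ± 0.328 (adjusted p = 0.0329), but the groups overlapped and the difference was 0.50 without p62 TKO replicate 1 (adjusted p = 0.23). The call was also lost without Nrf2 TKO replicate 1, 3 or 4 (adjusted p = 0.0736 to 0.079).

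Cldn7, a claudin found along the sides of epithelial cells as well as at the tight junction, was likewise lowest in WT and highest in DKO, from a higher starting level. It stood at 1.02, 0.693, 0.741 and 0.974 CPM in WT and at 47.9, 51.5, 53.8 and 39.7 in DKO. It rose by 5.80 ± 0.381 in DKO (adjusted p = 1.52e-11), by 2.50 ± 0.396 in Atg5 KO (adjusted p = 6.61e-05) and by 2.56 ± 0.399 in TSC1 KO (adjusted p = 0.000155). The Atg5 KO libraries lay at 3.66 to 7.01 CPM and the TSC1 KO libraries at 2.62 to 6.40, all above WT.

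In p62 TKO, Cldn7 was 16.9, 5.19, 7.21 and 10.4 CPM, and in Nrf2 TKO 7.62, 14.6, 10.6 and 10.1. It fell by 2.27 ± 0.287 from DKO to p62 TKO (adjusted p = 1.8e-06) and by 2.16 ± 0.287 from DKO to Nrf2 TKO (adjusted p = 1.35e-06). All triple knockout libraries were below DKO and above WT, and the triple knockouts overlapped each other (-0.11 ± 0.286 for p62 TKO against Nrf2 TKO, adjusted p = 0.826).

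Cldn6, a claudin of embryonic epithelium that is scarce in adult tissue, stood at 0.567, 0.347, 0.529 and 0.609 CPM in WT and at 26.9, 20.99, 20.5 and 20.8 in DKO. It rose by 5.42 ± 0.49 in DKO (adjusted p = 1.84e-09) and by 2.79 ± 0.523 in TSC1 KO (adjusted p = 0.000992), whose libraries lay at 2.41 to 5.03 CPM. In Atg5 KO it was 3.35, 0.449, 1.91 and 1.95 CPM. Replicate 2 of that group lay within the WT range, and the rise of 1.90 ± 0.546 (adjusted p = 0.0115) was 1.49 without replicate 1 (adjusted p = 0.0591). From DKO, Cldn6 fell by 1.35 ± 0.351 in p62 TKO (adjusted p = 0.00338), where it was 16.1, 5.01, 5.81 and 7.94 CPM, and by 1.54 ± 0.356 in Nrf2 TKO (adjusted p = 0.000853), where it was 6.34, 11.2, 7.46 and 5.6 CPM. These libraries were all below DKO and above WT.

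**Figure D2:**
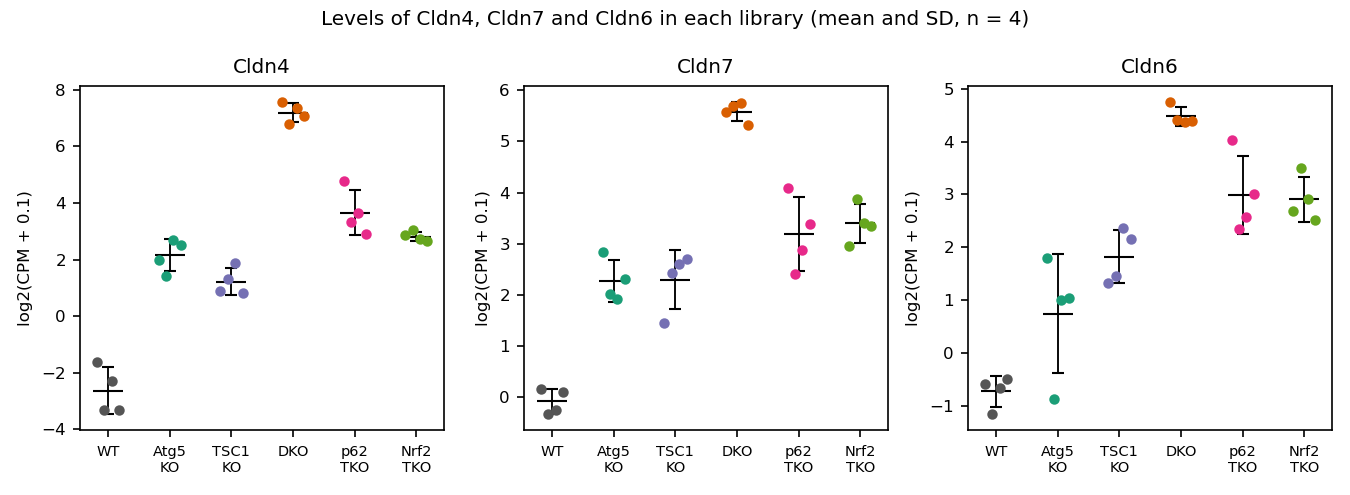
Levels of Cldn4, Cldn7 and Cldn6 in each library as log2(CPM + 0.1) (y axis) by genotype (x axis), with the mean and SD of these log values over 4 libraries as bars. DKO is the highest group for all 3 genes, and for Cldn6 Atg5 KO replicate 2 (0.449 CPM) lies within the WT range.

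Markers of bile duct cells (cholangiocytes) moved with these 3 genes. Of 15 cholangiocyte markers, 14 were higher in DKO than in WT and 1, Onecut1, was lower, where 37.1% of all genes were higher and 32.3% lower. With library totals alone 14 were higher and 0 lower, where 11158 of 15851 genes were higher and 1767 lower. The summed level of the 15 markers was 114 to 137 CPM in the WT libraries. It was 524 to 1250 CPM with Atg5 lost and 649 to 1090 with Tsc1 lost, reached 8230 to 11000 in DKO, and lay at 2620 to 3920 in p62 TKO and 1800 to 3280 for Nrf2 TKO. The sum was dominated by Spp1, which encodes osteopontin (7400 ± 1440 CPM in DKO), while the duct keratins Krt19 and Krt7 went from 1.67 ± 0.565 and 1.29 ± 0.233 CPM in WT to 54.5 ± 14.9 and 141 ± 9.46 in DKO. No marker of the list was at 0 in a whole group. The part of these cells in the claudin changes was not tested.

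Set against that sum, the 3 genes differed from each other. Cldn7 was 0.665 ± 0.0944% of the cholangiocyte sum in WT and 0.517 ± 0.0731% in DKO, and Cldn6 was 0.4 ± 0.0892% and 0.24 ± 0.0372%. Cldn4 was 0.0653 ± 0.0814% of it in WT but 1.59 ± 0.257% in DKO, beside 0.541 ± 0.228% with Atg5 lost, 0.256 ± 0.0565% with Tsc1 lost, 0.425 ± 0.215% for p62 TKO and 0.287 ± 0.0859% for Nrf2 TKO. Every DKO library (1.33% or more) was above every other library (0.857% or less) in this ratio for Cldn4. As Spp1 led the sum, these percentages depend mostly on that gene, and single markers rose by unlike amounts. Mmp7 went from 0.261 ± 0.159 CPM in WT to 820 ± 386 in DKO, and Sox9 from 10.3 ± 4.07 to 163 ± 20.1. Against another marker the 3 genes can therefore compare differently. The fetal liver and tumour markers of the oncofetal list summed to 18.6 to 25.4 CPM in WT and 988 to 1340 in DKO, beside 464 to 1220 for p62 TKO and 82.2 to 268 for Nrf2 TKO. The p62 TKO sums overlapped those of DKO through replicate 2 alone (1215 CPM). Replicates 1, 3 and 4, at 464.5, 479.8 and 876.4 CPM, lay below every DKO library. Cldn4, Cldn7 and Cldn6 were below DKO in every p62 TKO library. The part of these markers was not tested.

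**Figure D3:**
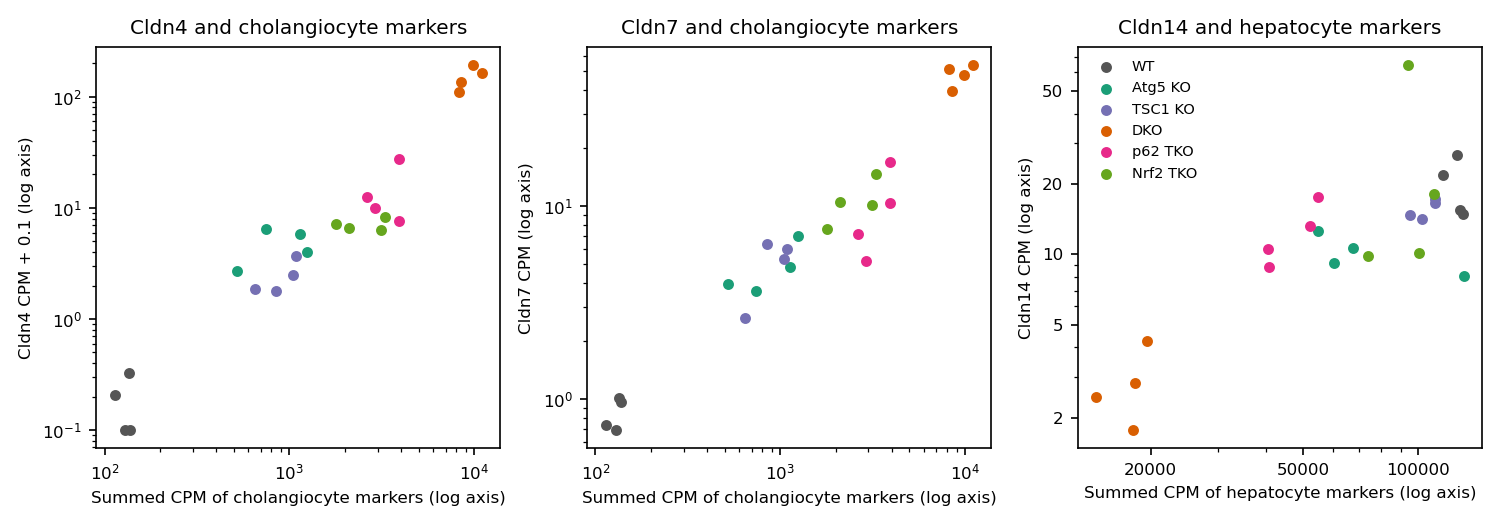
Level of Cldn4 (CPM + 0.1), Cldn7 and Cldn14 (CPM) in each of the 24 libraries (y axes, log) against the summed CPM of cholangiocyte markers (left and middle) or hepatocyte markers (right), on log axes, coloured by genotype. WT lies at the low end and DKO at the high end for Cldn4 and Cldn7, and for Cldn14 the DKO libraries (1.77 to 4.24 CPM) lie at the low end of the hepatocyte sum while Nrf2 TKO replicate 4 (64.4 CPM) lies above the rest.

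Cldn3 and Cldn2 were the most abundant members of WT liver, and they changed far less. Cldn3, a barrier claudin of bile canaliculi and ducts, stood at 99.6, 113.7, 74.5 and 101.1 CPM in WT and at 137, 123, 132 and 113.9 in DKO. All DKO libraries were above WT, though the lowest of them met the highest of WT within 1 CPM. The rise of 0.38 ± 0.139 (adjusted p = 0.0191) was 0.20 without WT replicate 3 (adjusted p = 0.21) and 1.38 with library totals alone. Cldn3 was 0.38 ± 0.139 lower in Nrf2 TKO than in DKO (adjusted p = 0.0252), with overlapping groups and -0.18 without Nrf2 TKO replicate 4 (adjusted p = 0.24), and the call was also lost without DKO replicate 1 or 3 or Nrf2 TKO replicate 3. Against WT, Cldn3 passed in neither single knockout and in neither triple knockout (0.00 to 0.17), though with library totals alone it was higher in Atg5 KO (0.55, adjusted p = 0.00733) and in p62 TKO (0.58, adjusted p = 0.00281).

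Cldn2, the pore-forming member, stood at 119.8, 115.4, 89.8 and 130.2 CPM in WT and at 83.8, 86.5, 85.8 and 60.2 in DKO. All DKO libraries were below WT, a fall of 0.53 ± 0.166 (adjusted p = 0.00762) that turned to a rise of 0.48 with library totals alone (adjusted p = 0.0135). Relative to the median of all genes, Cldn2 lay below in either scaling (medians 0.08 and 1.07). It was 140.1, 151, 123 and 92.4 CPM in p62 TKO, above DKO in all libraries (0.68 ± 0.166, adjusted p = 0.00196, and 0.21 with library totals alone, adjusted p = 0.286). In Nrf2 TKO it was 74.9 to 119 CPM, which overlapped both DKO and WT.

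Of 10 markers of hepatocytes around the central vein, 9 fell in DKO, where 32.3% of all genes were lower and 37.1% higher. Axin2 did not pass (6.98 CPM in WT and 7.65 in DKO). With library totals alone 8 of the 10 were lower and 1 higher, where 1767 of 15851 genes were lower and 11158 higher. The sum of these 10 markers, carried mostly by Cyp2e1, went from 11000 to 13900 CPM in WT to 567 to 1010 in DKO. Cldn2 was 0.94 ± 0.112% of that sum in WT and 10.4 ± 3.29% in DKO. The sum of 10 hepatocyte markers went from 116000 to 131000 CPM in WT to 14400 to 19500 in DKO, a 7.14-fold lower mean. Cldn3, Cldn12, Cldn2 and Cldn1 kept more of their level than that sum, and each was a larger percentage of it in DKO (0.733, 0.311, 0.458 and 0.175%) than in WT (0.0778, 0.0774, 0.0914 and 0.0753%). Against this sum Cldn14 was the exception, at 0.0159 ± 0.00488% of it in WT and 0.016 ± 0.00491% in DKO. Alb was the largest member of the sum, and single markers fell by unlike amounts. Serpina1e went from 14200 ± 2240 CPM in WT to 38.2 ± 29.6 in DKO, and Apoa1 from 10300 ± 950 to 4020 ± 848. Hnf4a went from 906 ± 52.5 to 239 ± 27, beside 95.7 ± 41.3 and 30.6 ± 5.67 for Cldn1. These percentages therefore depend on which markers lead the sum. The part of these cells in the changes was not tested.

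Cldn1, a barrier claudin whose loss in people is linked to bile duct disease, had higher means than WT in both groups with 1 deletion, of which Atg5 KO passed, and fell in DKO. It stood at 114.5, 134.4, 95.4 and 38.6 CPM in WT, where replicate 4 was low, and at 31.0, 38.3, 28.2 and 25.0 in DKO. The fall was 1.65 ± 0.289 (adjusted p = 2.98e-05), or 0.67 with library totals alone (adjusted p = 0.0393), and DKO replicate 2, at 38.3 CPM, was close to WT replicate 4. In Atg5 KO, Cldn1 was 150.4, 168.5, 201 and 121 CPM and in TSC1 KO 152, 202, 160.4 and 128, both overlapping WT.

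The values of Cldn1 with 1 deletion were near the threshold of the test. It was higher by 0.74 ± 0.281 in Atg5 KO (adjusted p = 0.0498), a call that was lost without WT replicate 3 or 4 or without Atg5 KO replicate 1, 2 or 3 (0.51 without WT replicate 4, adjusted p = 0.112). In TSC1 KO the value was 0.75 ± 0.281 (adjusted p = 0.0731), and it passed without WT replicate 2 (0.95, adjusted p = 0.0438). The interaction of the deletions, which is the DKO change minus the sum of the changes in Atg5 KO and TSC1 KO, was -3.14 ± 0.405 for Cldn1 (adjusted p = 4.4e-06). From DKO, Cldn1 rose by 1.42 ± 0.287 in p62 TKO (73.4 to 97.6 CPM, adjusted p = 0.000405) and by 1.66 ± 0.288 in Nrf2 TKO (51.1 to 118.5 CPM, adjusted p = 4.69e-05), in all libraries.

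Cldn14, a cation barrier of kidney and inner ear that also has RNA in liver, stood at 26.5, 14.9, 15.4 and 21.9 CPM in WT and at 1.77, 4.24, 2.45 and 2.81 in DKO. All DKO libraries were below WT, with a fall of 2.80 ± 0.472 (adjusted p = 2.01e-05). It rose from DKO by 2.15 ± 0.465 in p62 TKO (8.85 to 17.5 CPM, adjusted p = 0.000813). In Nrf2 TKO it was 10.1, 9.81, 18.1 and 64.4 CPM, and the rise of 3.18 ± 0.473 (adjusted p = 8.38e-06) was 2.23 without replicate 4 (adjusted p = 1.35e-06). In Atg5 KO all libraries (8.09 to 12.6 CPM) were below WT, but the difference did not pass (-0.96 ± 0.437, adjusted p = 0.104).

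Cldn12, a claudin without the usual binding motif for the junction scaffold, stood at 97.7, 89.4, 98.9 and 100.5 CPM in WT and at 51.6, 50.6, 56.2 and 56.5 in DKO. It fell by 0.85 ± 0.114 (adjusted p = 7.05e-07), but had a value of 0.15 with library totals alone (adjusted p = 0.145), where the median of all genes was 1.07. It was also below WT in p62 TKO (-0.61 ± 0.114, adjusted p = 0.000131) and in Nrf2 TKO (-0.53 ± 0.114, adjusted p = 0.000861), and with library totals alone these were -0.08 and -0.23 and neither passed. The Cldn12 interaction of -0.50 ± 0.16 (adjusted p = 0.0178) was 0.00 with library totals alone. Without the filter on low counts it was -0.45 and its call was lost (adjusted p = 0.0959).

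Cldn5, the endothelial claudin of the blood-brain barrier, stood at 4.08, 4.04, 5.93 and 2.31 CPM in WT and at 11.7, 8.49, 8.23 and 5.16 in DKO. The groups overlapped, and the rise of 1.03 ± 0.425 (adjusted p = 0.0357) did not pass on leaving out WT replicate 1, 2 or 4 or DKO replicate 1 or 2, where it ran down to 0.83 (adjusted p = 0.103). Of 15 endothelial markers 8 were higher in DKO and 2 lower, so that 10 were called where 69.3% of all genes were. With library totals alone 11 were higher and 1 lower, where 11158 of 15851 genes were higher and 1767 lower. The summed level of these markers was 133 to 251 CPM in WT and 223 to 266 in DKO. Their part in the Cldn5 value was not tested.

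**Figure D4:**
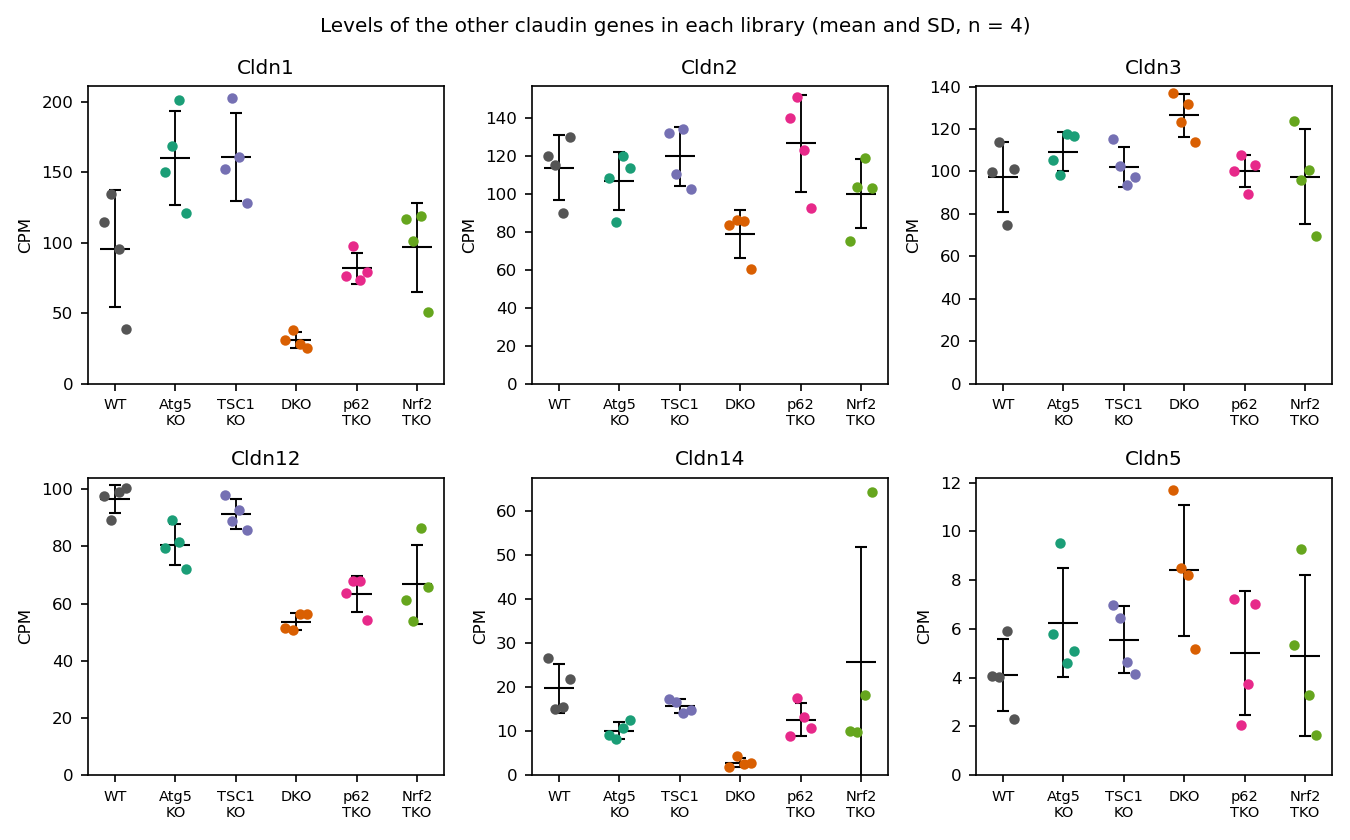
CPM of Cldn1, Cldn2, Cldn3, Cldn12, Cldn14 and Cldn5 in each library (y axes, linear) by genotype (x axis), with the mean and SD over 4 libraries as bars. DKO lies below WT for Cldn1, Cldn2, Cldn12 and Cldn14 on this TMM scale, though with library totals alone Cldn2 was higher in DKO and Cldn12 did not pass (0.15), and Nrf2 TKO replicate 4 stands out for Cldn14 (64.4 CPM).

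Counted over the members, Atg5 KO against WT had 4 of the 9 higher (Cldn4, Cldn7, Cldn6 and Cldn1) and 0 lower, where 29.9% of all genes were called (18.6% higher and 11.3% lower). TSC1 KO against WT had 3 higher (Cldn4, Cldn7 and Cldn6) and 0 lower, against 16.4% of all genes (8.79% higher and 7.6% lower). With library totals alone the counts were 5 and 4 higher, and 0 lower. Of all 15851 genes, 5719 and 1851 were then higher, and 349 and 628 lower. The median log2 fold change of the members was 0.60 in Atg5 KO and 0.43 in TSC1 KO, with medians of all genes at 0.00 and 0.01. Cldn4, Cldn7 and Cldn6 were the members called in both comparisons. These comparisons share the WT libraries.

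In DKO against WT all 9 members were called, 5 higher (Cldn4, Cldn7, Cldn6, Cldn5 and Cldn3) and 4 lower (Cldn14, Cldn1, Cldn12 and Cldn2), where 69.3% of all genes were called (37.1% higher and 32.3% lower). With library totals alone the split was 6 higher, Cldn2 now among them, and 2 lower, Cldn1 and Cldn14, where 11158 of 15851 genes were higher and 1767 lower. DKO against Atg5 KO had 3 higher and 4 lower (56.5% of all genes called, 29.2% higher and 27.3% lower), and DKO against TSC1 KO had 3 higher and 4 lower (66.7%, 36.6% higher and 30% lower), in both cases Cldn4, Cldn7 and Cldn6 higher and Cldn1, Cldn2, Cldn12 and Cldn14 lower, and with library totals alone 5 higher and 2 lower in each. Of all 15851 genes, those totals had 9156 higher and 1955 lower against Atg5 KO, and 10774 and 1894 against TSC1 KO. The call of Cldn2 against Atg5 KO (-0.43 ± 0.166, adjusted p = 0.0296) was lost without Atg5 KO replicate 1, 3 or 4 or DKO replicate 4.

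The interaction was called for 2 members, both negative, Cldn1 and Cldn12 (34.8% of all genes, 15.5% positive and 19.3% negative). With library totals alone it was called for 1 positive, Cldn3, and 1 negative, Cldn1, where 5620 of 15851 genes were positive and 1684 negative. For Cldn7 and Cldn6 the interaction was 0.74 ± 0.529 and 0.72 ± 0.719 (adjusted p = 0.303 and 0.47), so on the log2 scale the DKO rise was not told apart from the sum of the rises in the groups with 1 deletion. For Cldn4 it was 0.38 (adjusted p = 0.923), with the WT term resting on 3 reads.

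**Figure D5:**
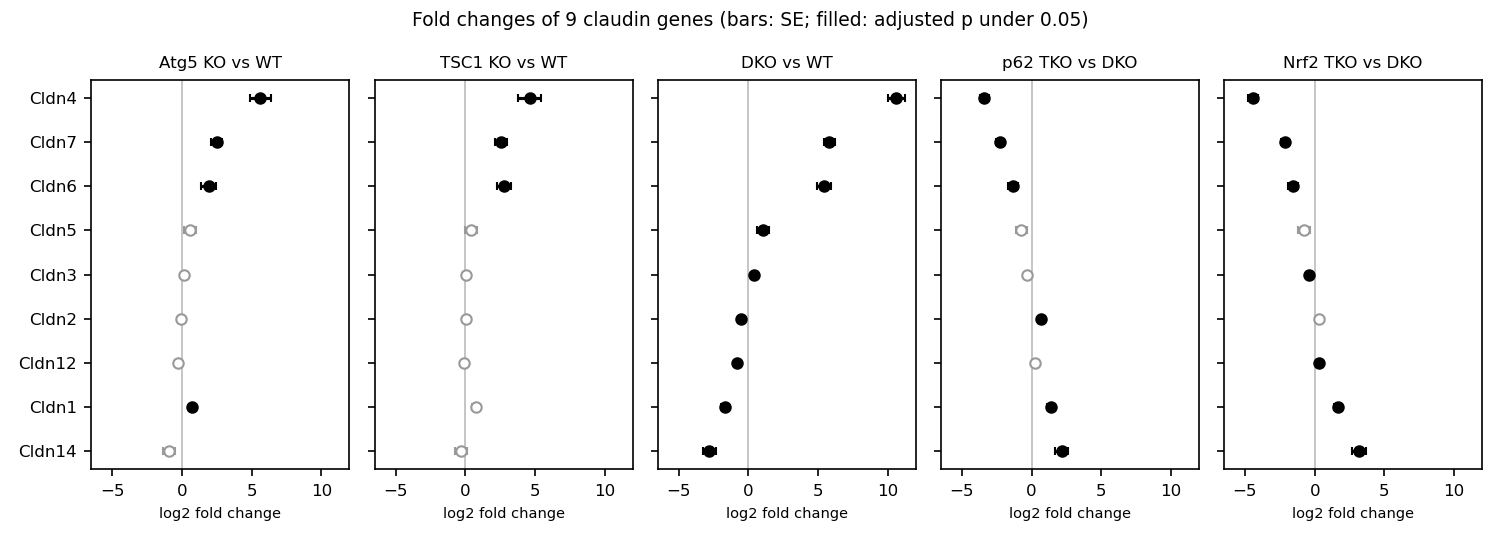
Log2 fold changes (x axes) of the 9 claudin genes (rows) in 5 comparisons, with bars for the SE and filled points for adjusted p under 0.05 by edgeR. The values of Cldn4 against WT rest on 3 WT reads, and the DKO decreases of Cldn2 and Cldn12 on this TMM scale become values of 0.48 and 0.15 with library totals alone, of which the second did not pass.

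Against DKO, p62 TKO had 3 members higher (Cldn1, Cldn2 and Cldn14) and 3 lower (Cldn4, Cldn7 and Cldn6), where 43.8% of all genes were called (22.3% higher and 21.5% lower), and 2 higher and 6 lower with library totals alone. Nrf2 TKO had 3 higher (Cldn1, Cldn12 and Cldn14) and 4 lower (Cldn4, Cldn7, Cldn6 and Cldn3), where 55.9% were called (26.7% higher and 29.2% lower), and 2 higher and 6 lower with library totals alone. Of all 15851 genes, those totals had 1624 higher and 7544 lower in p62 TKO, and 1826 and 9483 in Nrf2 TKO. The rise of Cldn12 in Nrf2 TKO (0.31 ± 0.114, adjusted p = 0.0225) turned to a fall of 0.37 with library totals alone (adjusted p = 0.00115), and its call was lost without DKO replicate 1 or 2 or Nrf2 TKO replicate 3. These comparisons share the DKO libraries with each other and with those of DKO against WT.

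The triple knockouts differed from each other in 1 member, Cldn4, higher in p62 TKO (17.5% of all genes called, 10.4% higher and 7.11% lower), as described above. Cldn14 was 1.03 ± 0.43 lower in p62 TKO (adjusted p = 0.103) and passed without Nrf2 TKO replicate 1 or 2 (-1.34 and -1.30), while without replicate 4 the value was -0.04 (adjusted p = 0.931). Against WT, both p62 TKO (50.9% of all genes called, 28% higher and 22.9% lower) and Nrf2 TKO (39.5%, 22.4% higher and 17.1% lower) had 3 members higher (Cldn4, Cldn7 and Cldn6) and 1 lower (Cldn12), and with library totals alone 5 and 3 higher and 0 lower. Of all 15851 genes, 8572 and 6166 were then higher, and 988 and 1004 lower. Cldn7 was above WT by 3.53 ± 0.383 in p62 TKO (adjusted p = 1.86e-07) and by 3.64 ± 0.383 in Nrf2 TKO (adjusted p = 3.54e-07). Cldn6 was above WT by 4.07 ± 0.496 (adjusted p = 8.72e-07) and 3.88 ± 0.499 (adjusted p = 4.29e-06). For Cldn1, Cldn2, Cldn3, Cldn5 and Cldn14 neither triple knockout passed against WT.

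Of 11 other claudin genes in the table, 4 passed the filter on low counts, Cldn8, Cldn11, Cldn15 and Cldn23, and the other 7 had at most 25 reads in any group. Cldn8, a claudin of distal kidney tubules, had 0.318 ± 0.356 CPM in WT and 1.57 ± 0.615 in DKO, with 2.38 ± 1.6 in Atg5 KO and 2.3 ± 0.893 in TSC1 KO. It rose in Atg5 KO, TSC1 KO and DKO (2.88 ± 0.648, 2.84 ± 0.654 and 2.29 ± 0.653, adjusted p = 0.00187, 0.00483 and 0.00356) and had a negative interaction (-3.43 ± 0.827, adjusted p = 0.00241). WT replicate 2 held 7 of the 11 WT reads, and without it these values were 3.88, 3.84, 3.22 and -4.50. Unlike Cldn4, Cldn8 was no higher in DKO than in the groups with 1 deletion (-0.60 ± 0.496 against Atg5 KO, adjusted p = 0.318).

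Cldn11, the claudin of myelin and of Sertoli cells, had 1 read in WT and 0 in Atg5 KO, but 121 in DKO and 92 in p62 TKO. It was 57.8-fold higher in DKO than in WT (95% counting interval 10.2 to 2300) and at least 26.9-fold higher than in Atg5 KO, taking 3 counts for the whole of that group. It was 62.5-fold higher in p62 TKO than in WT (10.9 to 2490), where replicate 1 held 59 of the 92 reads. The fitted log2 value of 5.48 was 4.52 without p62 TKO replicate 1 and 7.39 without WT replicate 3. In Nrf2 TKO it had 7 reads and was 3.32 ± 0.785 lower than in DKO (adjusted p = 0.00125, with -2.67 without DKO replicate 3 and -4.45 without Nrf2 TKO replicate 2). It differed between the triple knockouts by 3.39 ± 0.792 (adjusted p = 0.00556), or by 2.43 without p62 TKO replicate 1 (adjusted p = 0.0365) and 4.52 without Nrf2 TKO replicate 2. Fitted values of Cldn11 in DKO against WT ran from 4.76 without DKO replicate 3 to 7.30 without WT replicate 3. Cldn23 was 35.6-fold higher in DKO than in WT (9.67 to 296, with 2 reads in WT) and fell from DKO by 1.95 ± 0.531 in p62 TKO (adjusted p = 0.00456) and by 3.12 ± 0.613 in Nrf2 TKO (adjusted p = 0.000155). Without p62 TKO replicate 1 or Nrf2 TKO replicate 2 these were -2.75 and -3.84. Cldn15 passed in no comparison with all libraries in. It did pass (adjusted p = 0.0168 to 0.0483) in DKO against WT without DKO replicate 4, in DKO against Atg5 KO without Atg5 KO replicate 1 or 4 or DKO replicate 4, and in Nrf2 TKO against DKO without Nrf2 TKO replicate 4. Cldn15 was at 0.85 ± 0.105 CPM in WT and 0.346 ± 0.133 in DKO.

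Claudins work with other proteins of the tight junction, of which a list of 38 genes was described, all tested. In DKO against WT 26 were higher and 5 lower, where 37.1% of all genes were higher and 32.3% lower. The median log2 fold change was 0.85 against 0.08 for all genes. With library totals alone 35 of the 38 were higher and 2 lower, where 11158 of 15851 genes were higher and 1767 lower. The smallest adjusted p-values belonged to Patj, a polarity scaffold (1.84 ± 0.134, adjusted p = 5.05e-11), Epcam, a membrane partner of claudins (5.92 ± 0.407, adjusted p = 5.3e-11), Amot, an angiomotin (2.92 ± 0.213, adjusted p = 5.58e-11), and Arhgef2, a guanine nucleotide exchange factor (4.32 ± 0.312, adjusted p = 7.59e-11). In DKO the highest mean CPM, which is not corrected for gene length, belonged to Cxadr, an adhesion receptor (0.59, adjusted p = 0.00293), and F11r, which encodes JAM-A (1.30 ± 0.106, adjusted p = 3.09e-10). The 5 lower genes, named after their values were seen, were Lsr, Pard3, Ildr2, Igsf5 and Vapa (-0.33 to -1.63). With library totals alone Lsr (-0.63) and Pard3 (-0.29) were the 2 still lower. Epcam also stands in the cholangiocyte and oncofetal lists.

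In Atg5 KO 10 of the 38 were higher and 3 lower (23 and 1 with library totals alone), beside 18.6 and 11.3% of all genes, led by Epcam (3.37 ± 0.404), Clmp (2.60 ± 0.347), Ybx3 (0.74 ± 0.129) and Ildr1 (2.96 ± 0.541). The 3 lower, named after their values were seen, were Marveld3, Ildr2 and Pard3. In TSC1 KO 5 were higher and 3 lower (6 and 2 with library totals alone), beside 8.79 and 7.6% of all genes, led by Epcam (3.52 ± 0.405), Clmp (1.62 ± 0.361), Ildr1 (2.49 ± 0.566) and Lsr (-0.95 ± 0.226), and the others called, named after their values were seen, were Arhgef2 and Mpdz, higher, and Ildr2 and Sympk, lower. From DKO, 21 fell and 5 rose in p62 TKO (30 and 0 with library totals alone), beside 21.5 and 22.3% of all genes, led by Patj (-1.13 ± 0.129), Marveld3 (-1.79 ± 0.258), Magi1 (-0.84 ± 0.124) and Amotl1 (-1.80 ± 0.265). The 5 that rose, named after their values were seen, were Lsr, Pard3, Ildr2, Igsf5 and Vapa. In Nrf2 TKO 26 fell and 1, Pard3, rose (33 and 0), beside 29.2 and 26.7% of all genes, led by Patj (-1.44 ± 0.131), F11r (-1.11 ± 0.105) and Amot (-1.71 ± 0.199). The percentages of all genes here are on the TMM scale. Of all 15851 genes, library totals alone had 5719 higher and 349 lower in Atg5 KO, and 1851 and 628 in TSC1 KO. From DKO, 7544 fell and 1624 rose in p62 TKO with those totals, and 9483 fell and 1826 rose in Nrf2 TKO.

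The genes whose pattern was most like that of each claudin were found as the smallest root-mean-square difference between log2 CPM profiles, each centred on its own mean, over the 24 libraries. For Cldn7 they were Sphk1 and Grhl2 (0.34 each), Grhl2 being an epithelial transcription factor, and for Cldn6 Plet1 (0.46) and Tmem130 (0.47). Cldn7 and Cldn6 were nearest to each other among the members (0.57). Cldn4 was nearest to Myo5c (0.83) and to Cd24a (0.85), a marker in the cholangiocyte list, and its nearest member was Cldn7 (1.27). Cldn5 was nearest to Tie1 (0.41) and Egfl7 (0.42), both in the endothelial list. Among the genes nearest to Cldn14 was Crp (0.47), which encodes a plasma protein made by hepatocytes, and among those nearest to Cldn1 was Psen2 (0.35). Cldn12 was nearest to Tm2d2 and Os9 (0.11 each), Cldn2 to Usp4 (0.16) and Rab1b (0.17), and Cldn3 to Smg9 and Rrp1 (0.15 each). Distances are smaller for genes that vary little, so they do not rank the claudins against each other.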

How the data were processed

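RNA of mouse liver was measured in 24 libraries, 4 per genotype, grouped by the genotype in the labels. Per the labels' protocols, the libraries were stranded, selected for polyadenylated RNA and read from 1 end over 75 bp. The authors deposited raw counts, with a row for each Ensembl gene and a column for each library. The submitters' processing notes name GRCm38 as the build, with Trimmomatic 0.36, HISAT2 2.1.0 and HTSeq as tools, whereas the version of HTSeq, its annotation and its strand setting were not given in the sources used here.

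Of 33019 identifiers, 32953 had a symbol in GENCODE M21 and 66 did not. Counts were filtered with filterByExpr on the 6 groups (15851 genes kept), scaled by TMM and fitted as 6 genotype means, leaving 18 residual degrees of freedom, by robust quasi-likelihood in edgeR 4.0.16 (R 4.3.3, limma 3.58.1). An SE was taken as the absolute log2 fold change over the square root of F. Of 11 comparisons, 10 were pairs and 1 the interaction. Folds against 1 to 3 counts are ratios with a 95% exact counting interval. Distances between profiles used log2 CPM with a prior count of 2. Tables and figures were made with Python 3.11.15, pandas 2.3.3, numpy 2.4.6 and matplotlib 3.10.9, and the fit was tested on simulated data.

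Genes were named by rule: the 9 members, other claudins that passed the filter, the 4 targeted genes, the 4 smallest adjusted p-values and 2 highest levels per comparison in the tight junction list, the 2 nearest profiles per member, and defining markers. Some genes that the rule names are not reported here. The members, lists, tests and alternatives were chosen with earlier results of these data known. Alternatives were DESeq2 1.42.0, its size factors in edgeR, library totals alone, no filter, a fit of the compared groups alone, a block for the replicate number, and the removal of single libraries. Library totals alone for the tight junction and cell type lists was added after seeing the data.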

Additional observations from a re-analysis of the deposited data

Results flagged for a closer look

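In groups of 4 libraries, the highest or lowest library was set apart from the others (a gap over 0.829 of the range) in 7 of 78 checks. For normally distributed values this happens in about 1 in 20, but low counts are not so distributed. A group with 1 read in all is always flagged and a group at 0 throughout never, so the 7 cannot be set against that rate. Cldn2 was 60.2 CPM in DKO replicate 4, with the others at 83.8 to 86.5, and Cldn6 was 26.9 CPM in DKO replicate 1, with the others at 20.5 to 21. Cldn14 was 64.4 CPM in Nrf2 TKO replicate 4, with the others at 9.81 to 18.1. Cldn11 was 0.106 CPM, which is 1 read, in WT replicate 3 with the others at 0, 3.39 in DKO replicate 3 (others 0.802 to 1.24) and 4.18 in p62 TKO replicate 1 (others 0.805 to 0.956). Cldn8 was 1.42 CPM in p62 TKO replicate 1, with the others at 0.389 to 0.536.

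The effect of 1 deletion differed with the other deletion present or absent, by the interaction test in edgeR, for 3 claudins. The interaction was -3.14 for Cldn1, -0.50 for Cldn12 and -3.43 for Cldn8. The Cldn12 call was lost with library totals alone (0.00) and without the filter on low counts (-0.45).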

How the results depend on the processing

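Of 2084 recomputed values of single claudin genes, 52 kept their sign but lost the call, 49 kept their sign and gained one, and 76 changed sign. In 68 of the 76 neither value was called, and the other 8 turned with library totals alone. Cldn2 became 0.48 in DKO against WT, 0.18 against Atg5 KO and 0.26 against TSC1 KO. Cldn12 became 0.15 in DKO against WT, 0.047 against Atg5 KO and 0.10 against TSC1 KO, and -0.23 and -0.37 in p62 TKO and Nrf2 TKO against DKO. The cause was not tested.

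The number of members called moved by over 1.5 times in 3 comparisons, of which Atg5 KO against WT and p62 TKO against Nrf2 TKO did so on leaving out 1 library. In p62 TKO against Nrf2 TKO it was 1, and 2 with library totals alone (Cldn2 and Cldn4), 0 without the filter and 0 with only the groups compared. Of all genes tested in each fit, 2776 were called there, and 3536, 2125 and 1677 under these settings. The interaction had 2, and 1 without the filter and 4 with only the groups compared. It was called for 5517 of all genes, and for 4588 and 5730 under these settings. With 1 library left out the counts ran from 2 to 4 in Atg5 KO against WT (2 without Atg5 KO replicate 1), 3 to 4 in TSC1 KO against WT, 8 to 9 in DKO against WT, 6 to 7 in DKO against Atg5 KO, 7 to 8 in DKO against TSC1 KO, 2 to 3 for the interaction, 6 to 7 in p62 TKO against DKO, 5 to 8 in Nrf2 TKO against DKO, and 4 in each triple knockout against WT. In p62 TKO against Nrf2 TKO they ran from 0 (without p62 TKO replicate 1 or Nrf2 TKO replicate 3 or 4) to 2 (without Nrf2 TKO replicate 2). Calls over all genes moved too, from 2040 to 2888 there, and from 3582 to 5245 in Atg5 KO against WT. They were 1724 to 2272 in TSC1 KO and 10523 to 10836 in DKO against WT. DKO had 8322 to 8747 against Atg5 KO and 10117 to 10457 against TSC1 KO, and the interaction 4888 to 5500. Against DKO, p62 TKO had 5946 to 6995 and Nrf2 TKO 8108 to 8974, and against WT 7144 to 8050 and 4845 to 6944.

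Replicate numbers did not pair the libraries: correlations of deviations between same-numbered libraries ran from -0.28 to 0.24, with at most 1 pair over 0.1 in a comparison. With the replicate block, TSC1 KO against WT had 4 members called, Cldn1 added (0.82, adjusted p = 0.0115 by edgeR), and the other comparisons had their reported counts. Of all genes, 2469 were called in TSC1 KO against WT with the block and 2598 without it. Low depth limits the folds of Cldn4, Cldn11 and Cldn23 against WT, with 3 reads or fewer there.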
